A study of Mus musculus with 18 samples.

Results

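The genes described were 10 that relay or restrain Toll-like receptor (TLR) signals: the receptor escort Unc93b1, the adaptors Myd88, Tirap, Ticam1 and Ticam2, the kinase family members Irak2, Irak3 and Irak4, and the ubiquitin ligases Traf3 and Traf6. They were taken by gene symbol from the deposited gene table, where all 10 were found among 20615 genes, and all 10 were among the 15789 genes that passed the filter on low counts. RNA-seq was run on bone marrow derived macrophages (BMDMs) of C57BL/6 (B6) mice and of the C57BL/6.NOD-Aec1Aec2 line, called SjSS here, a model of Sjögren's syndrome that carries the NOD intervals Aec1 and Aec2 on a B6 background. Female mice of both strains were 7 to 12 weeks old, bone marrow was cultured for 7 days in medium conditioned by L929 cells as a source of M-CSF, and 300000 cells were plated per well. In each strain, 3 samples were left untreated as controls. Another 3 were given apoptotic cells (AC), thymocytes killed with dexamethasone, at 5 per BMDM for 2 h, washed, and kept for 3 h more. The methods section of the paper gives a longer time after the wash than its results section, which gives 3 h. The last 3 were given 1 µM CpG, an oligonucleotide ligand of TLR9, for 6 h. The sources used here give 3 mice per strain, but not whether samples with the same number came from 1 mouse. The p-values therefore measure the spread between samples within groups, with 1 estimate per gene shared by all 6 groups. Per the paper, thymi came from mice of both strains, and a separate cytokine assay used thymocytes of the BMDMs' own strain. Which strain supplied the thymocytes of each RNA-seq sample is not stated. The comparisons ask how each strain responded to ACs and to CpG, and whether the strains differed.

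TLRs that read nucleic acids are carried by UNC93B1 from the endoplasmic reticulum to endosomes, where their ligands are met. All TLRs except TLR3 can signal through MyD88, which TIRAP helps to recruit at the plasma membrane and which assembles IRAK4 and IRAK2 into a complex that activates TRAF6 and, downstream, NF-kB. TLR3 uses TRIF (encoded by Ticam1), and TLR4 uses TRIF beside MyD88. TLR4 reaches TRIF through TRAM (encoded by Ticam2), and TRIF engages TRAF3 on the way to type I interferon. IRAK-M, the product of Irak3, is known in macrophages as a brake on this relay.

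Library totals were 30688336 to 57139662 estimated counts, and the 10 genes had 749 to 49381 counts per sample. Levels are given as CPM, counts relative to a common library total after scaling by the trimmed mean of M values (TMM), a method that sets the bulk of genes equal between samples. This matters for one group: the TMM factors were 0.833 to 0.838 in the 3 SjSS AC libraries and 1.10 to 1.13 in the 3 SjSS controls, and with library totals alone the median gene was 0.43 lower on the log2 scale with AC in SjSS. Differences are therefore relative to the bulk of genes, and values with library totals alone are given where they reverse the direction of a gene that passed under either scaling. Macrophage markers summed to 14800 to 22800 CPM in every group and all 7 were present. The 15 thymocyte and T cell markers summed to 0.769 to 1.56 CPM in controls of B6, 1.85 to 2.54 in B6 AC samples, 0.976 to 1.53 in SjSS controls and 2.65 to 3.43 in SjSS AC samples. In CpG samples, which received no thymocytes, they summed to 1.21 to 2.13 CPM in B6 and 1.51 to 2.38 in SjSS. The markers did not all go 1 way. Mean CPM of Lat, Lck and Cd247 was 0.492, 0.264 and 0.270 in B6 AC samples and 0.976, 0.651 and 0.604 in SjSS AC samples. Rag1 and Dntt stood at 0.163 and 0.123 in B6 AC samples and at 0.0231 and 0.00701 in SjSS AC samples. The sums therefore do not rank the strains by thymocyte RNA. Known glucocorticoid induced genes, measured because the thymocytes had been given dexamethasone, summed to 269 to 274 CPM in B6 controls, 297 to 325 with AC, 259 to 312 in SjSS controls and 316 to 356 with AC. Sgk1 made up most of that sum, and of the 6 genes it was the 1 that rose with AC in SjSS, while Tsc22d3, Per1, Klf9 and Ddit4 fell. The shares of all genes tested were 28.5% risen and 29.3% fallen. In B6, 1 rose and 2 fell, beside 19.8% and 18.2%. With CpG, without thymocytes, 0 of the 6 rose and 5 fell in each strain. Beside these, 28.1% of all genes rose and 29.7% fell in B6, and 27.8% and 26.3% in SjSS. The 3 fibroblast markers Col1a1, Col1a2 and Dcn summed to 34.7 to 121 CPM over the B6 samples and 139 to 218 over the SjSS samples. The part of these genes in the differences below was not tested. In bulk samples, fewer cells of a type and less RNA per cell cannot be told apart.

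None of the 10 genes lay on chromosome 1 or 3, which hold the Aec2 and Aec1 intervals. The sequences below are the 250 bases before the RefSeq start sites (GRCm38.p6) of Myd88, the gene with the largest AC response in SjSS, of Traf3, whose CpG response was larger in SjSS, and of Ticam1, which fell with AC in SjSS where Myd88 rose. Capitals mark matches to a motif and each is printed along the gene's own strand. The Myd88 window, chr9:119340019-119340268 on the minus strand, held TTCNNNGAA from -46 to -38 and the pattern GAAA, 2 free bases, GAAA from -40 to -31 relative to the start, overlapping by 3 bases. The RefSeq start of Myd88 used here lies 1393 bases inside the gene as GENCODE M21 annotates it, and that of Ticam1 lies 19 bases inside. The Traf3 window, chr12:111166120-111166369 on the plus strand, held the NF-kB consensus from -10 to -1. The Ticam1 window, chr17:56276768-56277017 on the minus strand, held no match.
Myd88: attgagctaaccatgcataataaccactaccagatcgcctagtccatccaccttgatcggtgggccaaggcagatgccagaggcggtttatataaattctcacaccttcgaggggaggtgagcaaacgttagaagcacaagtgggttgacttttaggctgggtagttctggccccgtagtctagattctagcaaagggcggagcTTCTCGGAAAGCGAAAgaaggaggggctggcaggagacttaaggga
Traf3: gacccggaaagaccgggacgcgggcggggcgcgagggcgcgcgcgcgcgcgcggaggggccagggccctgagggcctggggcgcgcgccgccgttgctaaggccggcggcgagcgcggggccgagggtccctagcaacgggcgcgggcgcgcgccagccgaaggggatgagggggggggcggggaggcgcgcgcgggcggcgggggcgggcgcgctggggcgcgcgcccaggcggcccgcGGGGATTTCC
Ticam1: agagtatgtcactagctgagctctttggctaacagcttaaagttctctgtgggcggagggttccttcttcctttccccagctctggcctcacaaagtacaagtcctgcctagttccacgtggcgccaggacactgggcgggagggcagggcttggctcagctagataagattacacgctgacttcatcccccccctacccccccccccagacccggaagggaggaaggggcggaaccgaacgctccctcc
Both strands were searched for 4 motifs, and of all 32851 windows of this length 3.9% held the NF-kB consensus, 2.98% held the GAAA pair (a pattern of interferon response elements), 7.02% held TTCNNNGAA (the core bound by STAT proteins) and 6.75% held TGANTCA (the AP-1 site). Of the 10 genes, 8 had a window in this search, with 10 windows in all. Among these 8, only the windows of Myd88 and Traf3 held a match. The share of all windows that held any of the 4 motifs was not computed, so that count has no background beside it. A match describes the letters and is not evidence of a bound factor. No window of Unc93b1 or Ticam2 was included, so whether either gene has a match was not tested.

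**Figure D1:**
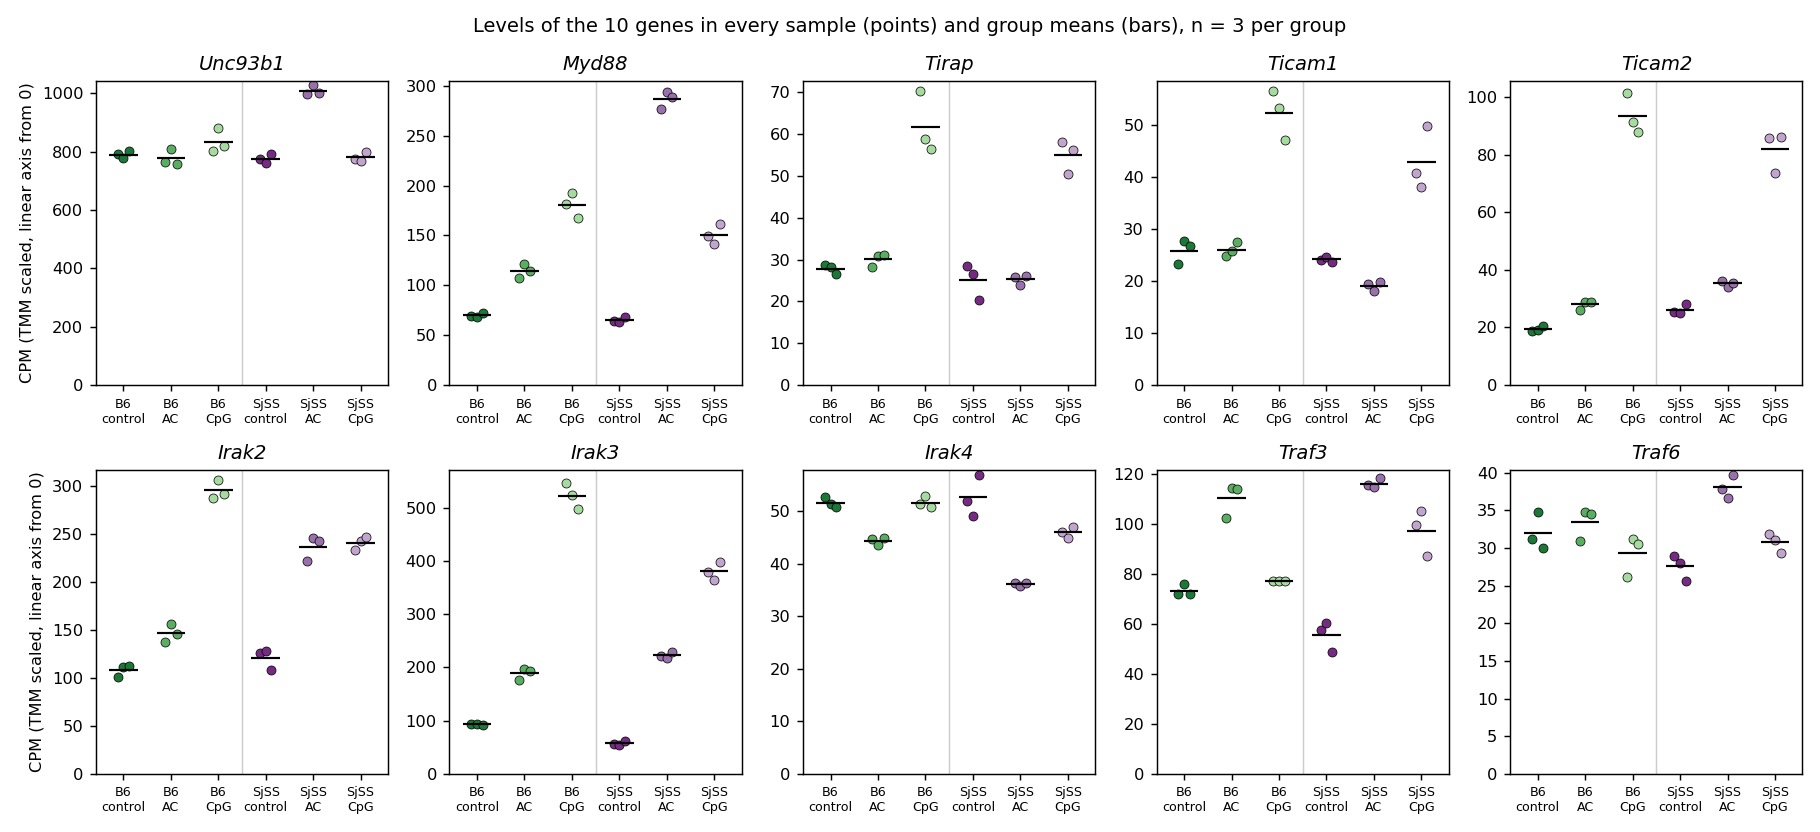
Levels of the 10 genes in every sample, as TMM-scaled CPM on linear axes from 0, with 1 panel per gene. Points are samples and bars are group means (n = 3), with B6 in green on the left and SjSS in purple on the right of each panel. Myd88 in SjSS AC samples (277 to 293 CPM) lay above every other Myd88 value. The group means of Irak2, Irak3, Ticam2, Tirap and Ticam1 were highest with CpG in B6. For Tirap and Ticam1 the B6 CpG samples overlapped the SjSS CpG samples.

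The 10 genes moved in different directions and to different degrees with ACs. With edgeR's quasi-likelihood test and adjusted p under 0.05 as the criterion, 5 of the 10 rose and 1 fell with AC in B6, where 19.8% of all genes tested rose and 18.2% fell. In SjSS, 7 rose and 2 fell, beside 28.5% and 29.3% of all genes, and with library totals alone the split was 4 risen and 3 fallen, beside 13.1% and 56.4% of all genes. The median log2 fold change of the 10 was 0.28 in B6, beside 0.00 for all genes, and 0.45 in SjSS, beside -0.02 for all genes. The strain by AC interaction, the difference between the AC responses of SjSS and B6, was above 0 for 6 genes and below 0 for 2, beside 19.4% and 18.2% of all genes. On library totals alone it was above 0 for 2 genes, Myd88 and Irak3, and below 0 for 4, beside 9.09% and 41.8% of all genes.

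CpG raised most of the 10 genes in both strains, Irak3 and Ticam2 most. It raised 6 and lowered none in B6, where 28.1% of all genes rose and 29.7% fell (6 and 2 of the 10 with library totals alone, beside 19.9% and 41.4%), and 4 of the 10 lay between adjusted p = 0.163 and 0.999. In SjSS it raised 7 and lowered 1, beside 27.8% and 26.3% of all genes. The median log2 fold change of the 10 was 1.09 in B6 and 0.91 in SjSS, and that of all genes was -0.04 and -0.01. The strain by CpG interaction passed for 3 of the 10 genes, 1 above and 2 below 0, beside 3.13% and 2.6% of all genes, and with library totals alone 2 above and 2 below, beside 5.09% and 1.98%. With the study's further condition of a log2 fold change over 1.3 in size, 4 of the 10 passed with CpG in B6 (12.7% of all genes) and 2 in SjSS (9.23%). By that criterion 2 passed with AC in SjSS (12.9% of all genes), Myd88 and Irak3, and 0 with AC in B6 (4.45%). Myd88 alone passed it in the strain difference with AC (8.86% of all genes), the strain by AC interaction (7.47%) and the strain by stimulus interaction (8.66%), Irak3 and Ticam2 passed it for AC against CpG in B6 (7.07%), and none of the 10 did so for AC against CpG in SjSS (9.14%), the strain difference in controls (2%) or with CpG (2.6%), or the strain by CpG interaction (0.595%).

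**Figure D2:**
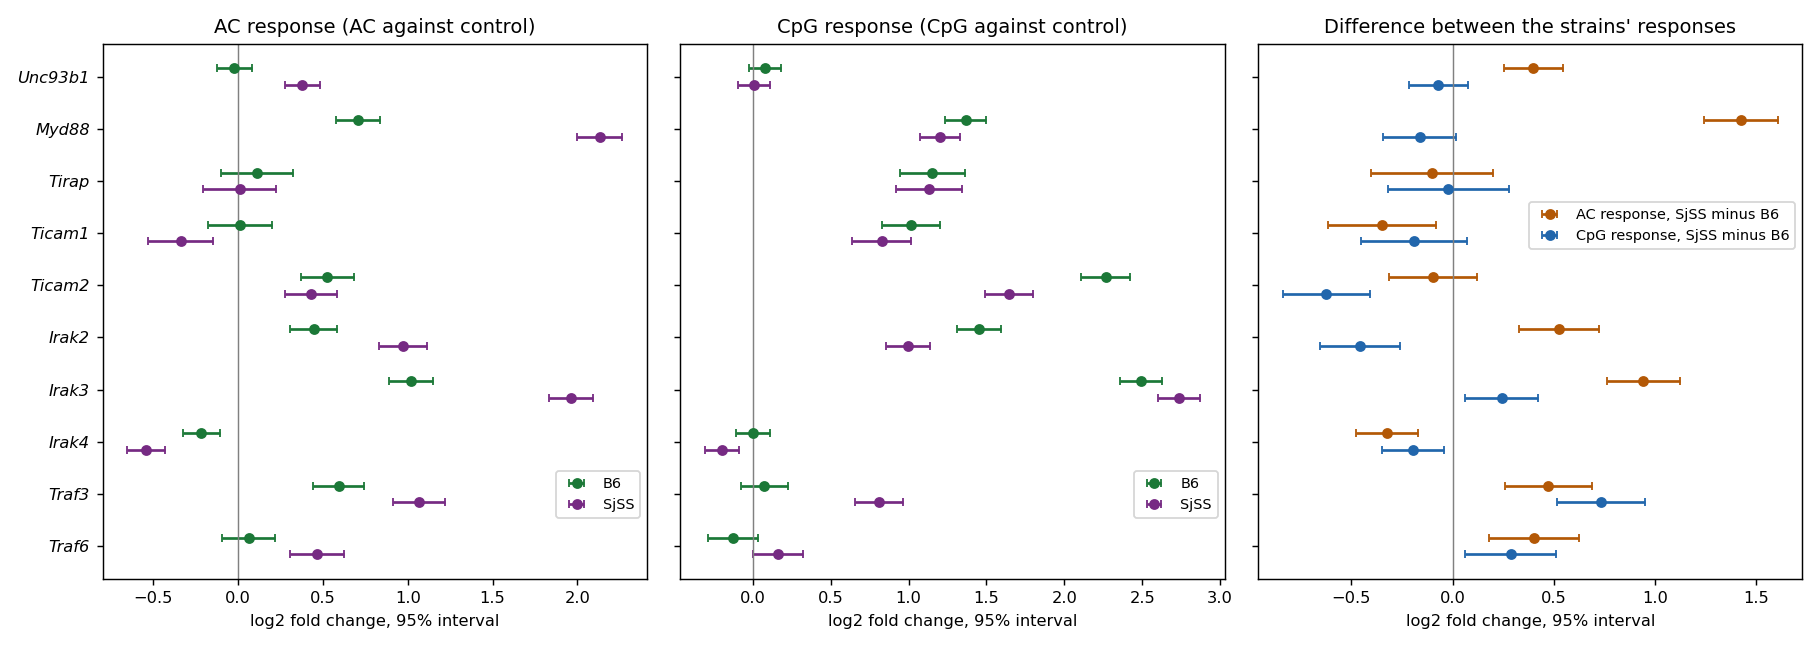
Log2 fold changes of the 10 genes with AC (left) and CpG (middle) against control in B6 (green) and SjSS (purple), and the difference between the strains' responses (right; AC in orange, CpG in blue), with 95% intervals from edgeR. The largest difference is that of Myd88 with AC (1.43), whose CpG difference interval spans 0; the Unc93b1 AC response in SjSS (0.38) was -0.04 with library totals alone, and the near-zero Tirap AC response in SjSS (0.01) was -0.40.

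Myd88, the adaptor shared by most TLRs and the IL-1 receptor family, had the largest AC response of the 10 in SjSS; in B6 that of Irak3 was larger. Its gene (chromosome 9, 119335934 to 119341412, minus strand, mm10) had levels of 69.7, 68.6 and 71.8 CPM in B6 controls and 64.4, 63.7 and 67.9 in SjSS controls. With AC the levels were 108, 121 and 114 CPM in B6 and 277, 293 and 289 in SjSS. With CpG they were 181, 193 and 168 CPM in B6 and 149, 141 and 161 in SjSS. Every treated sample lay above every control of its strain, and the 3 SjSS AC samples lay above all 15 others. Myd88 rose 1.63-fold with AC in B6 (log2 0.71 ± 0.06 SE, adjusted p = 2.04e-08) and 4.39-fold in SjSS (log2 2.13 ± 0.06, adjusted p = 3.4e-16). The difference between these responses was 1.43 on the log2 scale (95% interval 1.24 to 1.61, adjusted p = 1.31e-10). The CpG responses were 2.58-fold in B6 and 2.30-fold in SjSS, and their difference of -0.16 (interval -0.34 to 0.02) had adjusted p = 0.309. The order of the stimuli thus turned with the strain: Myd88 was 1.58-fold lower with AC than with CpG in B6 and 1.90-fold higher in SjSS, and the strain by stimulus interaction was 1.59 (adjusted p = 1.93e-11). Myd88 overlaps Acaa1a on the other strand, and the strand setting of the counting is not given in the sources used here, so reads in the overlap could belong to either gene. It also overlaps Slc22a14 on its own strand, a gene not analysed here. The Acaa1a response to AC in SjSS was 0.75 on the log2 scale.

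Tirap, the membrane adaptor that brings MyD88 to cell surface TLRs, responded to CpG and not detectably to ACs. Its levels (chromosome 9, 35184551 to 35200292, minus strand) were 28.8, 28.2 and 26.5 CPM in B6 controls, 28.3, 30.8 and 31 with AC and 70.2, 58.9 and 56.3 with CpG. In SjSS they were 28.4, 26.5 and 20.4 CPM in controls, 25.8, 23.8 and 26.2 with AC and 58.2, 50.5 and 56.2 with CpG. The CpG samples stood apart from the others in both strains, and control and AC samples overlapped in both. CpG raised Tirap 2.22-fold in B6 (adjusted p = 7.52e-09) and 2.19-fold in SjSS (adjusted p = 1.49e-08), with a difference of -0.02 (interval -0.32 to 0.28, adjusted p = 0.961). With AC the log2 fold change was 0.11 in B6 (interval -0.10 to 0.32) and 0.01 in SjSS (interval -0.21 to 0.23), and the latter was -0.40 (adjusted p = 0.000889) with library totals alone. Of AC samples, those of SjSS were 1.19-fold lower than those of B6 (adjusted p = 0.0497), a call that was lost in 13 of 18 fits that each left out 1 library, including each SjSS AC library (adjusted p up to 0.164). Tirap overlaps Srpr and Gm39318 on the other strand.

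Ticam1 encodes TRIF, the adaptor of TLR3 and of endosomal TLR4. Its levels (chromosome 17, 56269319 to 56276787, minus strand) were 23.2, 27.6 and 26.6 CPM in B6 controls and 24.8, 25.7 and 27.4 with AC. SjSS controls stood at 24.0, 24.6 and 23.7 CPM and SjSS AC samples at 19.4, 18.1 and 19.7. The B6 AC samples overlapped their controls, while the SjSS AC samples lay below all other samples. Ticam1 fell 1.27-fold with AC in SjSS (log2 -0.34 ± 0.09 SE, adjusted p = 0.00346), beside a log2 fold change of 0.01 in B6 (interval -0.18 to 0.20, adjusted p = 0.944). The interaction of -0.35 had adjusted p = 0.0371 with TMM scaling, 0.0571 with DESeq2's size factors and up to 0.108 when 1 library was left out. It was lost without B6 control replicate 1, B6 AC replicate 2 or 3, SjSS control replicate 1 or 2, or SjSS AC replicate 1 or 2. CpG gave 56.4, 53.3 and 47.0 CPM in B6 and 40.6, 38.0 and 49.7 in SjSS, above all controls. These were rises of 2.03-fold (adjusted p = 4.32e-09) and 1.77-fold (adjusted p = 1.32e-07). The SjSS CpG samples were 1.22-fold lower than the B6 CpG samples (adjusted p = 0.025), although the groups overlapped. That call was lost without B6 CpG replicate 1 or 2 or SjSS CpG replicate 1 or 2 (adjusted p up to 0.145).

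Ticam2 encodes TRAM, which links TLR4 to TRIF. Its levels (chromosome 18, 46559155 to 46574534, minus strand) were 18.7, 19.3 and 20.4 CPM in B6 controls, 26.2, 28.9 and 29.0 with AC and 101, 91.5 and 87.9 with CpG. In SjSS they were 25.3, 25.1 and 28.3 CPM in controls, 36.2, 34.2 and 35.6 with AC and 85.8, 73.6 and 86.2 with CpG. The 3 treatments of a strain did not overlap, and SjSS controls lay above B6 controls. Ticam2 was 1.35-fold higher in SjSS than in B6 controls (adjusted p = 0.000407). It rose 4.81-fold with CpG in B6 (adjusted p = 2.44e-15) and 3.12-fold in SjSS (adjusted p = 2.68e-13). The CpG response was smaller in SjSS by 0.62 on the log2 scale (interval of the difference -0.84 to -0.41, adjusted p = 0.00104). With AC it rose 1.44-fold in B6 and 1.35-fold in SjSS, with a difference of -0.10 (interval -0.32 to 0.12, adjusted p = 0.516); with library totals alone the SjSS response was 0.01 (adjusted p = 0.879) and the difference -0.44 (adjusted p = 0.00137). Ticam2 overlaps Tmed7 on the same strand, so counts could be split between them, and Tmed7 rose with CpG by 0.45 on the log2 scale in B6 and 0.53 in SjSS.

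Irak3 had the largest CpG response of the 10 genes in both strains, and its product is the kinase-deficient brake IRAK-M. Its levels (chromosome 10, 120141648 to 120202131, minus strand) were 94.1, 93.8 and 91.1 CPM in B6 controls, 176, 197 and 193 with AC and 547, 525 and 498 with CpG. In SjSS they were 55.6, 53.2 and 62.5 CPM in controls, 221, 218 and 229 with AC and 379, 364 and 398 with CpG. No groups overlapped: SjSS was the lower strain in controls and with CpG, and the higher one with AC. SjSS controls were 1.63-fold below B6 controls (adjusted p = 1.38e-07). Irak3 rose 2.03-fold with AC in B6 (adjusted p = 1.08e-10) and 3.9-fold in SjSS (adjusted p = 1.07e-15), a difference of 0.94 on the log2 scale (interval 0.76 to 1.12, adjusted p = 4.02e-08). From its lower control level, SjSS ended 1.18-fold above B6 with AC (adjusted p = 0.00267), a difference of 0.24 that was -0.06 (adjusted p = 0.398) with library totals alone. CpG raised it 5.63-fold in B6 and 6.66-fold in SjSS. The difference of 0.24 had adjusted p = 0.108, and 0.0317 without SjSS control replicate 3. In both strains Irak3 was higher with CpG than with AC, by 2.77-fold in B6 and 1.71-fold in SjSS. It overlaps Tmbim4 and Gm47009 on the other strand.

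Irak2, a kinase that sustains TLR signalling, had levels (chromosome 6, 113638467 to 113695027, plus strand) of 101, 111 and 112 CPM in B6 controls, 138, 156 and 146 with AC and 288, 306 and 291 with CpG. In SjSS they were 125, 128 and 108 CPM in controls, 222, 246 and 242 with AC and 233, 242 and 247 with CpG. In B6 the AC samples lay between the control and CpG samples, whereas in SjSS the AC and CpG samples overlapped. Irak2 rose 1.36-fold with AC in B6 (adjusted p = 2.4e-05) and 1.96-fold in SjSS (adjusted p = 1.23e-10), and 2.74-fold and 2.00-fold with CpG. The strains' responses differed in opposite directions, by 0.53 with AC (adjusted p = 0.000177) and by -0.46 with CpG (adjusted p = 0.00644), so the strain by stimulus interaction was 0.98 (adjusted p = 5.94e-08). With library totals alone the AC difference was 0.19 (adjusted p = 0.0766). In SjSS, AC and CpG samples differed by -0.03 on the log2 scale (interval -0.16 to 0.11, adjusted p = 0.777), and by -0.31 (adjusted p = 0.000156) with library totals alone. Irak2 overlaps Gm43912 on its own strand and Gm43963 and Gm43964 on the other.

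Irak4, the kinase that starts the MyD88 complex, moved the other way. Its levels (chromosome 15, 94543643 to 94581816, plus strand) were 52.8, 51.4 and 50.9 CPM in B6 controls and 44.8, 43.5 and 45.0 with AC, and in SjSS 51.9, 49.2 and 56.9 in controls and 36.4, 35.7 and 36.4 with AC. AC samples lay below controls in both strains, and SjSS AC samples lay below all others. Irak4 fell 1.16-fold with AC in B6 (adjusted p = 0.00225) and 1.46-fold in SjSS (adjusted p = 2.19e-08), a difference of -0.32 (interval -0.48 to -0.17, adjusted p = 0.00175). With CpG it stood at 51.3, 53.0 and 50.7 CPM in B6, overlapping the controls (log2 0.00, interval -0.11 to 0.11), and at 46.1, 44.9 and 47.0 in SjSS. The SjSS CpG samples were below the SjSS controls, a fall of 1.15-fold (adjusted p = 0.00345), but the strain by CpG interaction of -0.20 had adjusted p = 0.132 (0.045 with the DESeq2 Wald test). In B6 the CpG response was -0.18 (adjusted p = 0.00826) with library totals alone. Irak4 overlaps Twf1 on the other strand.

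Traf3, a ubiquitin ligase of the interferon branch, was the gene whose CpG response was larger in SjSS. Its levels (chromosome 12, 111166370 to 111267154, plus strand) were 71.8, 75.9 and 71.8 CPM in B6 controls, 103, 114 and 114 with AC and 77.0, 77.0 and 77.2 with CpG. The SjSS values were 57.7, 60.4 and 48.7 CPM in controls, 116, 115 and 118 with AC and 99.6, 105 and 87.2 with CpG. SjSS controls lay below B6 controls, SjSS CpG samples lay above B6 CpG samples, and the B6 CpG samples lay just above their controls. The control difference was 1.32-fold, lower in SjSS (adjusted p = 0.00074). CpG raised Traf3 1.75-fold in SjSS (adjusted p = 1.08e-08), beside a log2 fold change of 0.07 in B6 (interval -0.08 to 0.23, adjusted p = 0.403), and the responses differed by 0.73 (interval 0.52 to 0.95, adjusted p = 0.000271). With AC it rose 1.51-fold in B6 (adjusted p = 2.02e-06) and 2.09-fold in SjSS (adjusted p = 1.23e-10). That difference of 0.47 (adjusted p = 0.00114) was 0.13 (adjusted p = 0.275) with library totals alone. Among AC samples the strains differed by 0.07 (adjusted p = 0.417), and by -0.23 (adjusted p = 0.00715) with library totals alone. In SjSS, Traf3 was 1.19-fold higher with AC than with CpG (adjusted p = 0.00589), a log2 difference of 0.26 that was -0.03 with library totals alone. Traf3 overlaps 4930595D18Rik on the other strand.

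Traf6, the ligase that carries the MyD88 signal to NF-kB, had its 1 called response with AC in SjSS. Its levels (chromosome 2, 101678429 to 101701670, plus strand) spanned 26.2 to 34.8 CPM over all 9 B6 samples. In SjSS they were 29.0, 28.1 and 25.6 CPM in controls, 37.8, 36.7 and 39.7 with AC and 31.9, 31.1 and 29.3 with CpG. The SjSS AC samples lay above all others, while the B6 groups overlapped. Traf6 rose 1.38-fold with AC in SjSS (log2 0.47 ± 0.08 SE, adjusted p = 2.31e-05) and the strain by AC interaction was 0.40 (adjusted p = 0.00536). With library totals alone both were small, at 0.05 (adjusted p = 0.53) and 0.06 (adjusted p = 0.646). The CpG responses did not pass (-0.13, adjusted p = 0.163 in B6 and 0.16, adjusted p = 0.0846 in SjSS). That in B6 passed with library totals alone (-0.31, adjusted p = 0.00113), and that in SjSS with a replicate block within each strain (adjusted p = 0.0435).

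Unc93b1, the escort of the nucleic acid sensing TLRs, was the most abundant of the 10. Its levels (chromosome 19, 3935186 to 3949341, plus strand) were 791, 777 and 802 CPM in B6 controls, 766, 810.0 and 759 with AC and 803, 882 and 818 with CpG. The SjSS values were 776, 761.7 and 791 CPM in controls, 997, 1029 and 1001 with AC and 776, 767 and 800.1 with CpG. The SjSS AC samples lay above all 15 others, which otherwise spanned 759 to 882 CPM. Unc93b1 rose 1.3-fold with AC in SjSS (log2 0.38, adjusted p = 1.29e-06) on the TMM scale, but its log2 fold change was -0.04 (adjusted p = 0.53) with library totals alone. The strain by AC interaction was 0.40 (adjusted p = 0.000123) with TMM and 0.06 (adjusted p = 0.509) with library totals alone. The AC response in B6 and both CpG responses lay between -0.02 and 0.08 on the log2 scale, with adjusted p from 0.177 to 0.89, and that in SjSS with CpG was -0.12 (adjusted p = 0.0431) with library totals alone.

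Between the strains, 3 of the 10 genes differed in controls, Ticam2 being higher and Irak3 and Traf3 lower in SjSS, beside 8.73% of all genes higher and 10.4% lower. On library totals alone, Irak2 was also higher (0.20, adjusted p = 0.0239), and 11.2% of all genes were higher and 8.01% lower. With AC, 9 of the 10 differed, 6 higher and 3 lower in SjSS, beside 23.9% and 25.4% of all genes, and with library totals alone 2 were higher and 4 lower, beside 13.1% and 53%. Traf6 was 1.14-fold higher (log2 0.19, adjusted p = 0.0453), which was lost in 9 of the 18 fits that left out 1 library (adjusted p up to 0.199) and was -0.11 with library totals alone. With CpG, 6 differed, Traf3 being higher and Myd88, Ticam1, Irak2, Irak3 and Irak4 lower in SjSS, beside 9.96% of all genes higher and 9.49% lower. On library totals alone 1 was higher and 3 lower, beside 17.6% and 5.4% of all genes. Ticam1 (-0.19, adjusted p = 0.0972) and Irak4 (-0.07, adjusted p = 0.371) were then lost. Both were also lost when only the compared groups were fitted (adjusted p = 0.101 and 0.0803). The Irak4 call with CpG (1.12-fold, adjusted p = 0.0289) was lost without B6 CpG replicate 1 or 2 or SjSS CpG replicate 1 or 2 (adjusted p up to 0.104).

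Against CpG, AC left most of the relay at lower levels in B6. There 7 of the 10 genes were lower and 2 higher with AC than with CpG, beside 22.3% and 23.5% of all genes. With library totals alone 6 were lower and 2 higher, beside 16.4% and 32.2%. Traf6 was one of the higher 2, by 0.19 (adjusted p = 0.0479), a call lost in 12 of the 18 fits that left out 1 library. In SjSS 5 were lower and 4 higher, beside 26.4% and 25.6% of all genes, and with library totals alone 6 were lower and 1 higher, beside 48.4% and 13.9%. The genes lower with AC in both strains were Ticam1, Ticam2, Tirap, Irak3 and Irak4. In B6, Irak4 no longer passed with library totals alone (-0.11, adjusted p = 0.114). The strain by stimulus interaction passed for 6 of the 10, 5 above and 1 below 0, beside 19.1% and 19.7% of all genes. On library totals alone 3 were above and 5 below 0, beside 8.96% and 49.6% of all genes, and the interactions of Ticam2 (0.13, adjusted p = 0.262) and Unc93b1 (0.08, adjusted p = 0.352) no longer passed.

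Per kilobase of exon, Unc93b1 was the most abundant of the 10 in every group, at means of 256 to 333 CPM per kb. Next in order stood Myd88, Irak3 and Irak2, at 15.5 to 142 CPM per kb, and Traf6 or Ticam2 was last, at 3.36 to 4.83. The order of the upper genes changed with treatment. In B6 controls Myd88 was second (27.2 ± 0.63 CPM per kb, SD, n = 3), followed by Irak3 (25.3 ± 0.45) and Irak2 (24.4 ± 1.41), the latter pair overlapping. With CpG, Irak3 was second in both strains, at 142 ± 6.71 in B6 and 103 ± 4.66 in SjSS, ahead of Myd88 and Irak2, which overlapped. With AC, Irak3 (51.3 ± 2.94) was second in B6, ahead of Myd88 (44.4 ± 2.64), whereas in SjSS Myd88 (111 ± 3.29) was second, ahead of Irak3 (60.6 ± 1.51), with no overlap in either.

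Ratios between 2 genes of the same sample do not depend on the scaling of the libraries. 3 ratios of counts per kb were computed, chosen after the values had been seen, and with 3 samples against 3 a two-sided exact permutation test cannot go below p = 0.1. The Myd88 to Ticam1 ratio was 2.89 to 3.49 in B6 controls, 4.85 to 5.47 with AC and 3.73 to 4.20 with CpG. In SjSS it was 3.00 to 3.33 in controls, 16.6 to 18.8 with AC and 3.77 to 4.31 with CpG. The SjSS AC samples lay above all others, 3.42-fold above the B6 AC samples (exact permutation p = 0.1, the smallest possible). The B6 AC samples in turn lay above all control and CpG samples. Between the strains, controls differed 0.995-fold (exact permutation p = 0.9) and CpG samples 1.02-fold (exact permutation p = 0.5). The Irak3 to Irak2 ratio, brake to kinase, had means of 1.04, 1.54 and 2.13 in B6 and 0.574, 1.13 and 1.90 in SjSS, in controls and with AC and CpG. It was lower in SjSS under each of the 3 conditions, without overlap (exact permutation p = 0.1 each, the smallest possible). The Traf3 to Traf6 ratio was 2.46 in B6 controls, 3.54 with AC and 2.83 with CpG, and in SjSS 2.16, 3.28 and 3.39, so that AC and CpG samples differed in B6 without overlap and overlapped in SjSS (exact permutation p = 0.7).

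**Figure D3:**
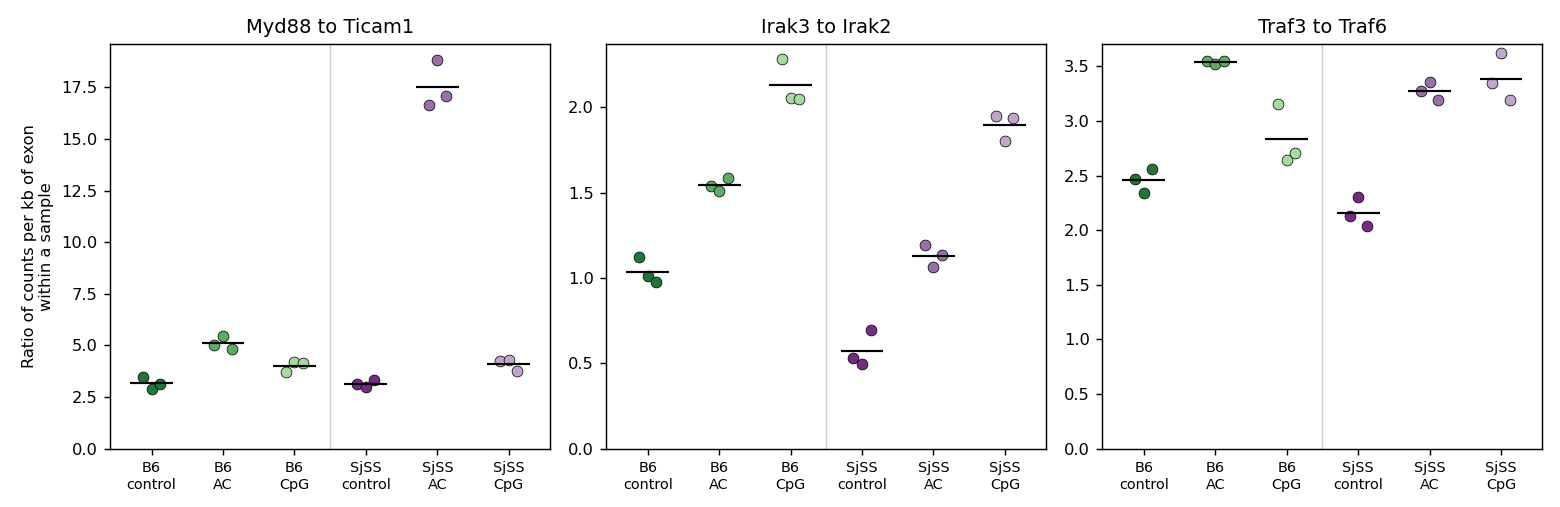
Ratios of counts per kb of exon between 2 genes within each sample, on linear axes from 0, for Myd88 to Ticam1, Irak3 to Irak2 and Traf3 to Traf6. Points are samples and bars are group means (n = 3); the SjSS AC samples had Myd88 to Ticam1 ratios of 16.6 to 18.8, and the other 15 samples lay between 2.89 and 5.47.

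Among 53 other genes of the pathway, 51 were tested and most receptors had a larger AC response in SjSS. With AC in SjSS 37 rose and 8 fell, beside 28.5% and 29.3% of all genes, and in B6 20 rose and 10 fell, beside 19.8% and 18.2%. The counts with library totals alone were 26 and 15 in SjSS, beside 13.1% and 56.4% of all genes, and 20 and 14 in B6, beside 14.9% and 23.4%. The strain by AC interaction was above 0 for 33 and below 0 for 4, beside 19.4% and 18.2% of all genes. These counts became 24 and 12 with library totals alone, beside 9.09% and 41.8%, and the same shares of all genes stand behind the counts of each list below. Of 15 receptors and coreceptors tested, 12 had a larger response in SjSS and 1 a smaller one (10 and 1 with library totals alone), with a median difference of 1.05 beside -0.01 for all genes. Tlr3, the sensor of double-stranded RNA that signals through TRIF, stood at 15.3 to 19.4 CPM in B6 AC samples and 102 to 113 in SjSS AC samples, and its responses were 0.12 and 2.74 on the log2 scale (interaction 2.62, adjusted p = 4.03e-09). Tlr9, the CpG sensor, stood at 32.9 to 39.3 and 85.7 to 107 CPM, with responses of -0.10 and 1.45 (interaction adjusted p = 2.05e-06). Both are clients of UNC93B1. Tlr7, a sensor of single-stranded RNA, fell by 0.40 in B6 and rose by 0.84 in SjSS (interaction 1.24, adjusted p = 5.36e-06). Tlr2 rose by 1.62 and 3.28, the coreceptor Cd14 by 0.95 and 2.10, and Tlr1 by 0.72 and 1.33. Tlr11 passed with AC in SjSS but at levels of at most 0.785 CPM. Not all receptors rose with AC in SjSS, where 12 rose and 2 fell, beside 28.5% and 29.3% of all genes. The mean of Tlr13 was 538.6 CPM in B6 controls and 391.8 with AC, and 511.9 in SjSS controls and 272.8 with AC.

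Of 14 genes of the kinase and ubiquitin relay, 8 had a larger AC response in SjSS and 2 a smaller one, and with library totals alone 5 and 6, where 9.09% of all genes were above and 41.8% below 0. Peli1, a ubiquitin ligase that acts on IRAKs, rose by 1.40 in B6 and 3.05 in SjSS, its relative Peli2 fell by 1.58 and 1.08, and Birc3 rose by 1.24 and 2.11. Tifa, a TRAF6 adaptor, had responses of -0.06 (adjusted p = 0.562) and 1.31. Irak1, the partner of Irak4 and Irak2, did not pass in either strain (-0.05 and 0.01, adjusted p = 0.477 and 0.822). In the TBK1 and IRF arm, 4 of 6 genes had a larger response in SjSS and 1 a smaller one. Tank, which binds TRAF3, rose by 0.48 and 2.21, Ikbke by 1.24 and 1.92, and Irf7 by 2.57 and 2.81 (interaction adjusted p = 0.574). Of 11 brakes tested, 6 had a larger and none a smaller response in SjSS (4 and 2 with library totals alone). Tnfaip3, which encodes the deubiquitinase A20, rose by 1.47 and 3.31, Tnip3 by 1.49 and 2.63, Tnip1 by 1.41 and 1.74, and Trim30a by 0.52 and 2.37. Of 5 chaperones and endosomal partners, 3 had a larger response in SjSS, and with library totals alone 1 larger and 2 smaller; Slc15a3, an endosomal transporter, rose by 0.40 and 1.38.

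**Figure D4:**
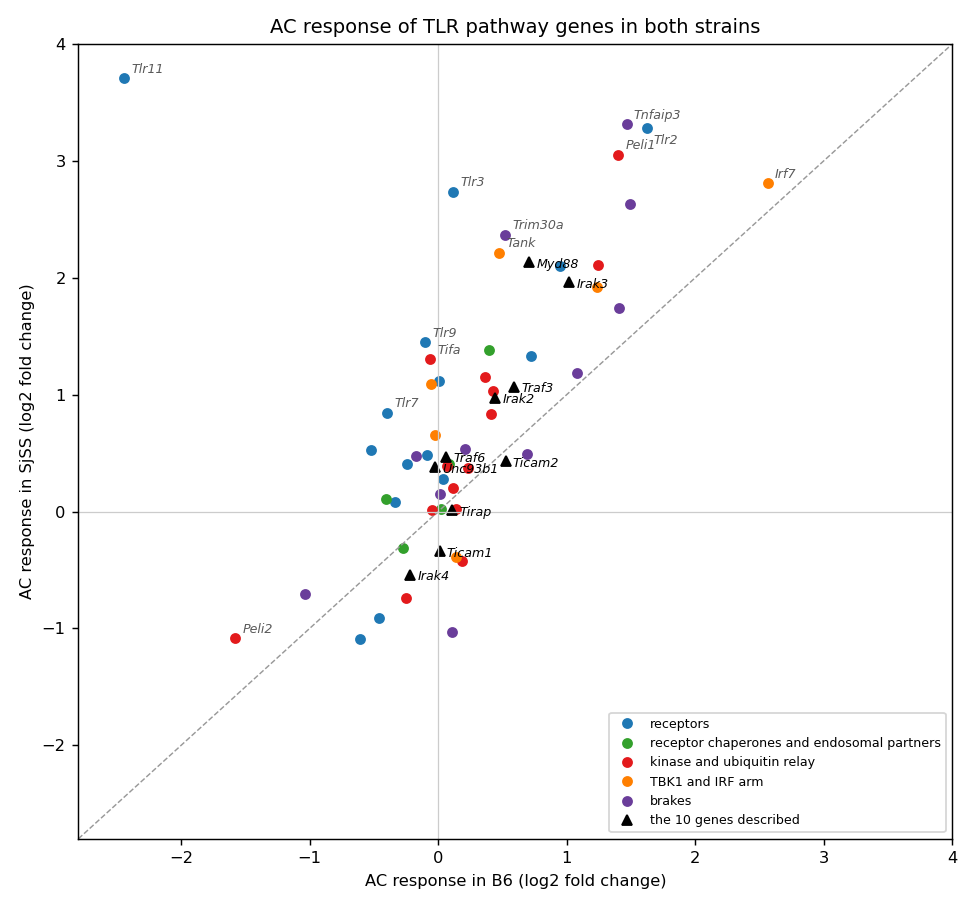
AC response in SjSS (vertical axis) against that in B6 (horizontal axis), both log2 fold changes, for the 10 genes (triangles) and 51 other genes of the TLR pathway (circles, coloured by list), with a dashed line where both are equal. The strain by AC interaction was above 0 for 33 of the 51 circles and below 0 for 4, and Myd88 and Irak3 lie above the line; with library totals alone those counts were 24 and 12.

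The genes whose log2 CPM followed each of the most changed members closest over the 18 samples were, for Myd88, Cd40 (Pearson r = 0.995), Slc2a6 (0.994) and Larp1 (0.994), and for Irak3, Nadk (0.995), Clec4a1 (0.994) and Vasp (0.994). For Irak2 they were Ccl3 (0.986), Pik3ap1 (0.982) and Surf4 (0.981), and for Ticam2, Siah2 (0.981), Cnksr3 (0.98) and Gbe1 (0.979). The samples share 6 groups, so these values describe likeness of pattern across groups.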

How the data were processed

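The deposited table held estimated counts per gene, which the authors made by aligning reads to mm10 with STAR and quantifying them in Partek (per the labels; the annotation release and strand setting are not given in the sources used here). Of the values, 41.1% were not whole, and they were rounded first. Counts were fitted with edgeR 4.0.16 in R 4.3.3: filterByExpr, TMM factors, 6 group means over all 18 samples, robust quasi-likelihood tests of 12 comparisons, and Benjamini-Hochberg adjustment over 15789 genes, with adjusted p under 0.05 as the call. The script was tested on simulated data. No sample was a copy of another: replicates differed by more than sampling noise. The genes and lists were chosen with earlier results of these data known. Named were the 10 genes, Irak1, Tlr7, Tlr9, Tlr13, and pathway genes past a log2 fold change of 1.3 in an AC response or its interaction. Also named were the 3 genes most like each member past 1.3 in any comparison. Neighbouring genes were named for overlap. Alternatives were DESeq2 1.42.0, its size factors, other filters, the 1.3 threshold, fewer groups, replicate blocks and each library left out, and, added after the TMM factors were seen, library totals alone. Exon lengths were from GENCODE M21.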

Additional observations from a re-analysis of the deposited data

Results flagged for a closer look

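Differences between the strains' responses, each tested as an interaction in edgeR, drew attention for these genes. With AC the SjSS response exceeded that of B6 for Myd88 (1.43 on the log2 scale), Irak3 (0.94), Irak2 (0.53), Traf3 (0.47), Traf6 (0.40) and Unc93b1 (0.40), and was below it for Ticam1 (-0.35) and Irak4 (-0.32). With library totals alone the differences of Irak2, Traf3, Traf6 and Unc93b1 no longer passed. That of Ticam1 no longer passed with DESeq2's size factors in edgeR (adjusted p = 0.0571). With CpG it was larger in SjSS for Traf3 (0.73) and smaller for Ticam2 (-0.62) and Irak2 (-0.46). The difference between AC and CpG was higher in SjSS than in B6 for Myd88 (1.59), Irak2 (0.98), Irak3 (0.70), Ticam2 (0.53) and Unc93b1 (0.47), and lower for Traf3 (-0.26). With library totals alone those of Ticam2 and Unc93b1 no longer passed. Single outlying samples were not tested.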

How the results depend on the processing

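Across the 12 comparisons, counts of the 10 genes that passed moved by over 1.5 times with the 1.3 threshold, to 0, 2 and 2 for AC in B6, AC in SjSS and CpG in SjSS, to 0, 1 and 0 for the strain difference in controls, with AC and with CpG, to 1, 0 and 1 for the strain by AC, by CpG and by stimulus interactions, and to 2 and 0 for AC against CpG in B6 and SjSS. Leaving out 1 library at a time gave counts of 6 to 6 (AC in B6), 9 to 9 (AC in SjSS), 6 to 6 (CpG in B6), 8 to 8 (CpG in SjSS), 3 to 4 (controls), 7 to 9 (strains with AC), 4 to 7 (strains with CpG), 7 to 8 (strain by AC), 3 to 4 (strain by CpG), 8 to 9 and 9 to 9 (AC against CpG in B6 and SjSS) and 5 to 6 (strain by stimulus), and 109 of 120 calls held in all 18 such fits. The Traf3 strain by stimulus interaction (adjusted p = 0.0498) was lost in 14 of them. With library totals alone these values reversed: Unc93b1 with AC in SjSS (-0.035) and with CpG in SjSS (-0.12), Tirap with AC in SjSS (-0.40), Irak3 (-0.059), Traf3 (-0.23) and Traf6 (-0.11) between strains with AC, Traf3 for AC against CpG in SjSS (-0.031) and Traf6 by stimulus (-0.28). The median of all genes in those comparisons was then -0.14 to -0.45. With DESeq2's size factors in edgeR, Tirap between strains with AC (adjusted p = 0.0897), Ticam1 by AC (0.0571), Traf6 for AC against CpG in B6 (0.0833) and Traf3 by stimulus (0.117) were lost. Gained were Traf6 between controls (0.0493), Ticam2 between strains with CpG (0.0386) and Unc93b1 for AC against CpG in B6 (0.0409). The DESeq2 Wald test also gained Unc93b1 with CpG in B6 (0.0272), Unc93b1 between strains with CpG (0.0341) and Irak4 by CpG (0.045). Sample numbers are shared by the groups. All 18 same-numbered pairs within a strain deviated in the same direction (r from 0.02 to 0.26), 9 of them at r over 0.1. The best match carried the same number in 32 of 36 comparisons of a sample with another treatment of its strain. The main fits did not pair same-numbered samples. A replicate block over both strains left every count as it was (6, 9, 6, 8, 3, 9, 6, 8, 3, 9, 9 and 6, in the order just given), and a block within each strain gave 9 for CpG in SjSS, adding Traf6 (adjusted p = 0.0435), and 4 for strain by CpG, adding Irak3 (adjusted p = 0.05), and changed no other count; strain differences cannot be fitted with it. Each gene had at least 749 counts per sample, so precision rests on the 3 samples per group.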
